A study of Mus musculus with 4 samples.

Results

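Retinoic acid genes were examined in the tracheas of C57BL/6 mouse embryos, taken at embryonic day 16, on 4 Affymetrix arrays. Values are MAS5 signals, Affymetrix's summary of the brightness of a gene's probes on a linear scale. The group was chosen by gene symbol from the pathway's known parts: the uptake receptor Stra6, the synthetic enzymes Aldh1a2 and Aldh1a3, the cytoplasmic binding proteins Crabp1 and Crabp2, the degrading enzyme Cyp26b1 and the nuclear receptors Rara, Rarb and Rarg. All 9 were represented, by 12 probe sets, among 18193 genes paired with probe sets. For each gene the brightest probe set is given first and any other beside it. There were 2 wild-type arrays and 2 arrays of an a1H knockout, with replicates numbered 1 and 2 in each genotype. The label a1H is taken here to mean Cacna1h, which encodes the pore-forming subunit of a T-type calcium channel. The design text speaks of homozygous embryos set against wild type. The labels state neither the form of the deletion nor whether a sample was 1 embryo or a pool, so the p-values rest on a spread between samples that may be technical.

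Retinoic acid is a small lipid made from vitamin A. Retinol circulates bound to a carrier protein, enters cells through receptors such as STRA6, is oxidised to retinal by dehydrogenases and then, irreversibly, to retinoic acid by the ALDH1A enzymes. CRABP proteins carry the acid inside the cell, CYP26 enzymes break it down, and the RAR receptors, paired with RXR partners, bind repeated DNA half-sites and switch transcription when the acid is bound. In the embryonic foregut the pathway is needed for outgrowth of the lung buds and patterning of the airway, and lack of vitamin A is long known to turn the tracheal lining squamous.

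Markers of tracheal tissue were present on all arrays, and markers of other organs in unequal amounts. All 6 cartilage markers, among them Col2a1 and Acan, and all 6 fibroblast markers were above the level filter described below, and 8 of 9 airway epithelial markers were. Summed cartilage signal was 63840 and 80481 for wild type and 53549 and 78710 on the knockout-labelled arrays. Knockout-labelled replicate 2 stood apart. All 4 measured placental markers, Tpbpa, Prl8a9, Psg21 and Ceacam11, were highest there, with a summed signal of 137864 against 423 and 640 for wild type and 326 on the other knockout array. Skin markers summed to 2891 and 31953 for wild type and 2762 and 19872 on the knockout-labelled arrays. That sum was high on both replicate 2 arrays. Of the skin markers, Flg gave 15.7 and 4001 against 15.1 and 2.84, so it was lowest on knockout-labelled replicate 2. Fetal liver and yolk sac markers summed to 1836 and 45681 for wild type and 3616 and 32035 on the knockout-labelled arrays. Of the last sum, Ttr alone gave 27074. Without Ttr and Rbp4 this list summed to 599 and 38687 for wild type and 1671 and 3759 on the knockout-labelled arrays. Salivary gland markers summed to 1053 and 37705 for wild type and 15451 and 8539 on the knockout-labelled arrays. Each of these 2 lists was highest on wild-type replicate 2 and lowest on wild-type replicate 1. Thymocyte markers ranged from 4394 to 12877 for wild type and from 11672 to 28312 on the knockout-labelled arrays. Thymic epithelial markers were higher on both knockout-labelled arrays, 17691 and 10963 against 2401 and 5786 for wild type. Summed thyroid markers were lower on both, 21212 and 16270 against 22941 and 30038, and so were summed endothelial markers, 7161 and 6375 against 7917 and 8165. Among their genes the genotypes overlapped for Slc5a5 (572 and 525 against 701 and 490), Tie1 (1117 and 891 against 957 and 1033) and Pecam1 (1207 and 1102 against 1186 and 1271). The other genes of these lists were lower on both knockout-labelled arrays. The part of these tissues in the differences below was not tested. No marker was listed at 0. Spiked control signal also went with the replicate number, with geometric means of 5518 and 5449 for replicate 1 of wild type and knockout, and of 13082 and 16126 for replicate 2, over 18 probe sets. The ratio of 3' to 5' signal for Actb was 1.685 and 1.662 for wild type and higher, 1.903 and 1.967, on the knockout-labelled arrays. For Gapdh this ratio overlapped between genotypes, at 1.259 and 1.403 against 1.361 and 1.615. The part of RNA quality in the differences below was not tested. Cacna1h gave signals of 630 and 538 (wild type) against 981 and 631 (knockout-labelled), so the gene the labels name was not lower there. Probe positions against the deletion were not known, this check therefore says nothing about the labels, and directions below rest on them.

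**Figure D1:**
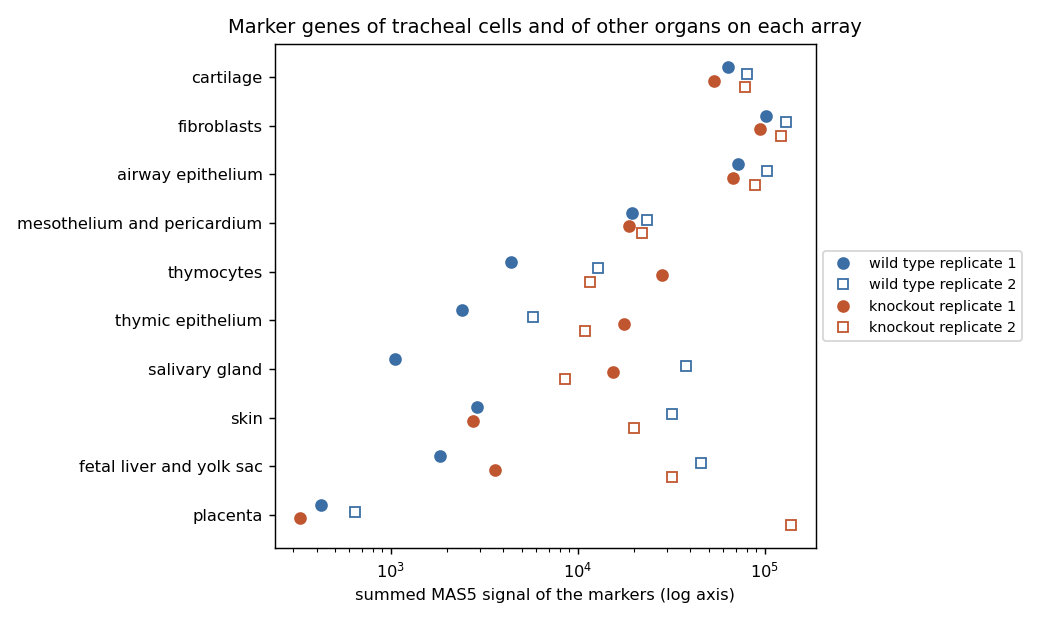
Summed MAS5 signal (log axis) of marker genes of tracheal cell types and of other organs, with 1 point per array, circles for replicate 1 and open squares for replicate 2. Cartilage, fibroblast and epithelial markers lay closer together on the 4 arrays, whereas placental markers were at 137864 on knockout-labelled replicate 2 and at most 640 elsewhere.

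No retinoic acid gene passed the test between genotypes. Signals were compared as log2(signal + 16) with limma, over 11694 genes whose mean level reached the median over probe sets, a signal of 397. Of the 9 genes 7 met this level, and Stra6 and Rara were dimmer and were not tested. Of the 7, 0 reached a Benjamini-Hochberg adjusted p under 0.05, where 0.0% of all genes tested did. At an unadjusted p under 0.05 there were also 0 of 7, a level that 4.58% of all genes tested met. Signals of knockout-labelled and wild-type arrays did not overlap for 2 of the 9, Stra6 and Crabp2, both higher on the knockout-labelled arrays. Over all 18193 genes 35.8% did not overlap and 16.8% did so with the knockout higher, so 2 of 9 is near the background. With 2 arrays per group the precision is low, and the 95% intervals of the 7 differences were wide.

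The 9 genes also varied between arrays of the same genotype, as many genes did. The knockout-labelled arrays lay further apart than the wild-type arrays on the log2 scale for 8 of 9 genes, every one but Rarg, against 57.7% of all genes. For some of the 8 the gaps differed little in size. Replicate 2 minus replicate 1 was -0.44 (knockout) and -0.29 (wild type) for Aldh1a2. In the same order it was -0.85 and -0.70 for Rarb, and -0.93 and 0.72 for Rara. Knockout-labelled replicate 2 gave the highest of the 4 signals for 5 genes, Aldh1a3, Cyp26b1, Stra6, Crabp1 and Crabp2, against 27.3% of all genes. For Cyp26b1 it was only 1.06-fold above the next array. The difference between genotypes had opposite signs within the 2 replicate numbers for 5 genes, Cyp26b1, Crabp1, Rara, Rarb and Rarg, against 40.5% of all genes. That count is not far from the background, and for Rarb the 2 values were small, 0.01 and -0.13. These patterns were chosen after the values were seen and are descriptions. The median log2 difference of the 9, knockout-labelled minus wild type, was -0.06, with 0.01 within replicate number 1 and 0.50 within number 2. Over all genes the corresponding medians were -0.02, -0.02 and -0.001. Of the 9 differences 4 were above 0 and 5 below, and with each array centred on its median the split was 8 and 1, so no direction can be given for the group as a whole. That centring moved the median of all genes from -0.02 to 0.21.

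**Figure D2:**
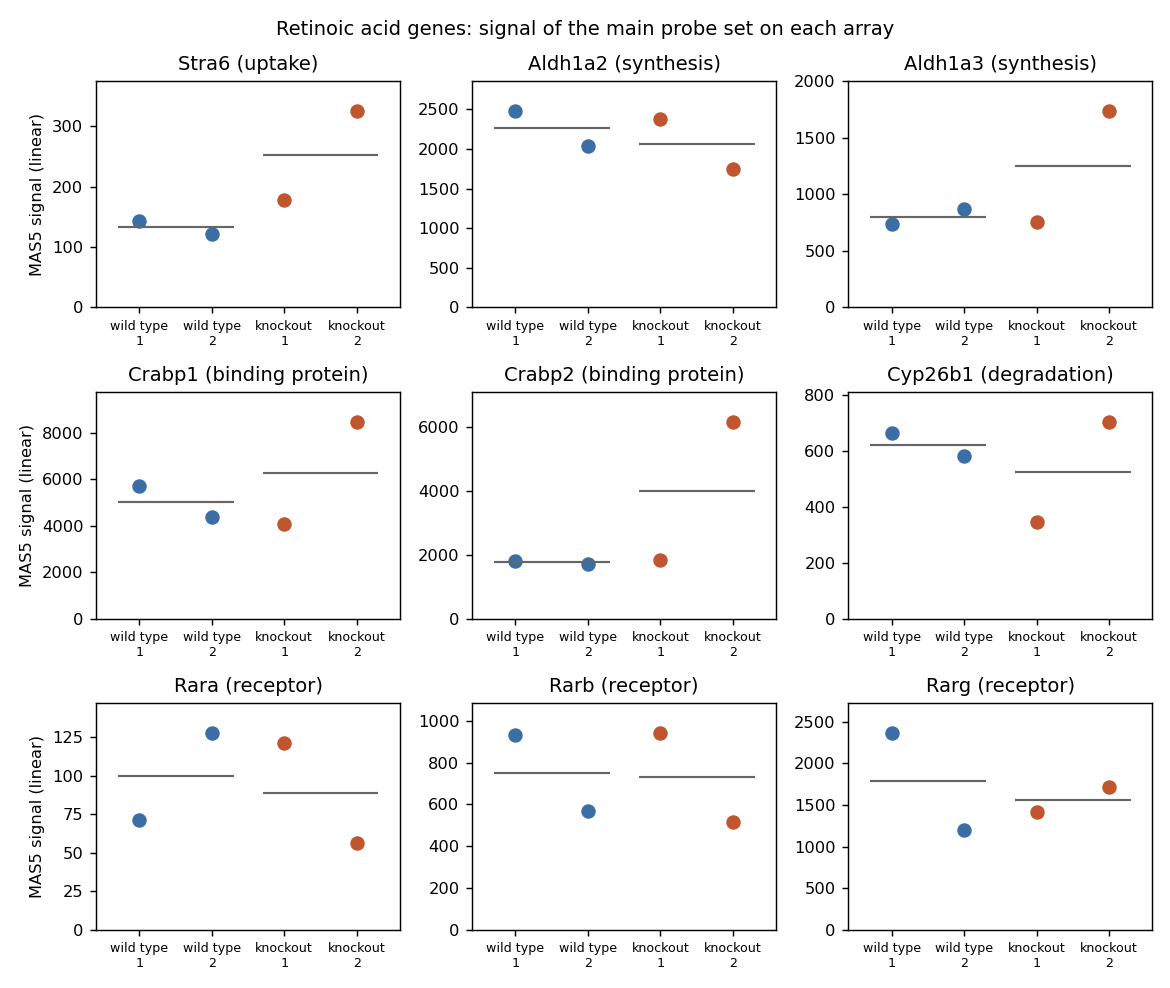
MAS5 signal (linear axis from 0) of the main probe set of each retinoic acid gene on the 4 arrays, with the group mean as a line. Crabp2, Aldh1a3 and Stra6 were close on 3 arrays and high on knockout-labelled replicate 2, while Rarb was alike in arrays of the same number.

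Uptake was represented by Stra6, the membrane receptor that takes retinol from its plasma carrier. Its single probe set, 1422723_at, gave signals of 143 and 122 (wild type) against 178 and 326 (knockout-labelled), or 133 ± 14.4 against 252 ± 105 (SD, n = 2 each). The groups did not overlap, and knockout-labelled replicate 2 was 1.84-fold above the next array. Between genotypes the log2 difference was 0.79, or 0.28 within replicate number 1 and 1.31 within number 2, at a level below the filter. Without knockout-labelled replicate 2, the array that held placental transcripts, it was 0.38. Placental signal and Stra6 were thus both highest on that array, and the part of placental RNA in this difference was not tested. In bulk tissue, fewer cells of a type and less RNA per cell cannot be told apart, here and below.

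Synthesis is carried out by ALDH1A enzymes, of which ALDH1A2 is the main source in embryonic mesenchyme and mesothelium and ALDH1A3 acts mostly in epithelia. Aldh1a2 (1422789_at) gave signals of 2486 and 2036 (wild type) against 2381 and 1754 (knockout-labelled). The groups overlapped, and both replicate 2 arrays were below both replicate 1 arrays, an order held by 25.2% of all genes. Knockout-labelled minus wild type, the log2 difference was -0.14 (SE 0.24, 95% interval -0.70 to 0.42, adjusted p 0.943), and it was -0.06 and -0.21 within replicate numbers 1 and 2. This was the narrowest interval among the 7 tested genes. Of the 7 mesothelial markers, the keratin Krt19, which airway epithelium also makes, gave most of the summed signal. All 7 summed to 19416.8 and 23350.5 (wild type) against 18814.7 and 21929.8 (knockout-labelled), higher on both replicate 2 arrays. Without Krt19 the other 6 summed to 7071 and 5637 (wild type) against 7326 and 3780 (knockout-labelled). That smaller sum was lower on both replicate 2 arrays, as Aldh1a2 was, so the order depends on leaving Krt19 out. Among them Upk3b gave 780 and 417 against 1208 and 180, and Wt1 492 and 313 against 877 and 206. Msln gave 2246 and 2142 against 2124 and 981, so there wild-type replicate 2 was above knockout-labelled replicate 1. The part of mesothelial cells in the Aldh1a2 signal was not tested.

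Aldh1a3 (1448789_at) gave signals of 738 and 868 (wild type) against 756 and 1741 (knockout-labelled). Replicate 1 of the knockout lay within the wild-type range, and replicate 2 was 2.01-fold above the next array. The difference on the log2 scale was 0.51 (SE 0.41, 95% interval -0.44 to 1.47, adjusted p 0.876), and without knockout-labelled replicate 2 it was -0.08. The other probe sets were dimmer and gave other signs. The probe set 1417642_at gave signals of 241 and 247 (wild type) against 149 and 382 (knockout-labelled), a log2 difference of -0.02. The probe set 1427395_a_at read 294 and 230 against 173 and 259, a log2 difference of -0.28. In all 3 probe sets knockout-labelled replicate 2 was above knockout-labelled replicate 1, by 1.19, 1.27 and 0.54 on the log2 scale. The part of placental RNA, highest on the same array, was not tested. The probe sets shared the gap between the knockout arrays and not the difference between genotypes.

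Of the 9 genes the binding protein gene Crabp2 had the widest gap between the knockout arrays, 1.74 on the log2 scale. Crabp2 (1451191_at), which delivers retinoic acid to nuclear receptors, gave signals of 1802 and 1715 (wild type) against 1831 and 6157 (knockout-labelled). The first 3 arrays lay within a narrow range, and knockout-labelled replicate 2 was 3.36-fold above the next of them. Means were 1759 ± 61.1 for wild type and 3994 ± 3060 on the knockout-labelled arrays (SD, n = 2 each). The log2 difference was 0.93 (SE 0.50, 95% interval -0.24 to 2.10, adjusted p 0.875), and it was 0.02 within replicate number 1 and 1.83 within number 2. Without knockout-labelled replicate 2 it was 0.06. Without knockout-labelled replicate 1, when replicate 2 alone stood for the knockout and was assumed to vary like wild type, it was 1.80 with an adjusted p of 6.3e-08 in limma. In that comparison 4.21% of all genes tested passed, and of the 7 retinoic acid genes Crabp1 and Crabp2 did.

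Crabp1 (1448326_a_at), the related binding protein of neural crest and mesenchymal cells, gave signals of 5710 and 4374 (wild type) against 4053 and 8478 (knockout-labelled). The knockout arrays lay on either side of the wild-type pair, and replicate 2 was 1.49-fold above the next array. Between genotypes the log2 difference was 0.23 (SE 0.34, 95% interval -0.57 to 1.03, adjusted p 0.930). It was -0.49 within replicate number 1 and 0.95 within number 2, so the sign turned with the replicate number. Without knockout-labelled replicate 1 it was 0.76 with an adjusted p of 0.030, and without knockout-labelled replicate 2 it was -0.30. Glial markers of the neural crest, 4 of 5 measured, summed to 9761 and 10449 for wild type and 8979 and 11631 on the knockout-labelled arrays, lowest and highest on the same arrays as Crabp1. Erbb3 gave most of that sum, whereas Sox10 was lowest on wild-type replicate 1, at 694, and S100b was lowest on knockout-labelled replicate 2, at 1506. For both Crabp genes the part of placental or skin RNA on knockout-labelled replicate 2 was not tested.

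**Figure D3:**
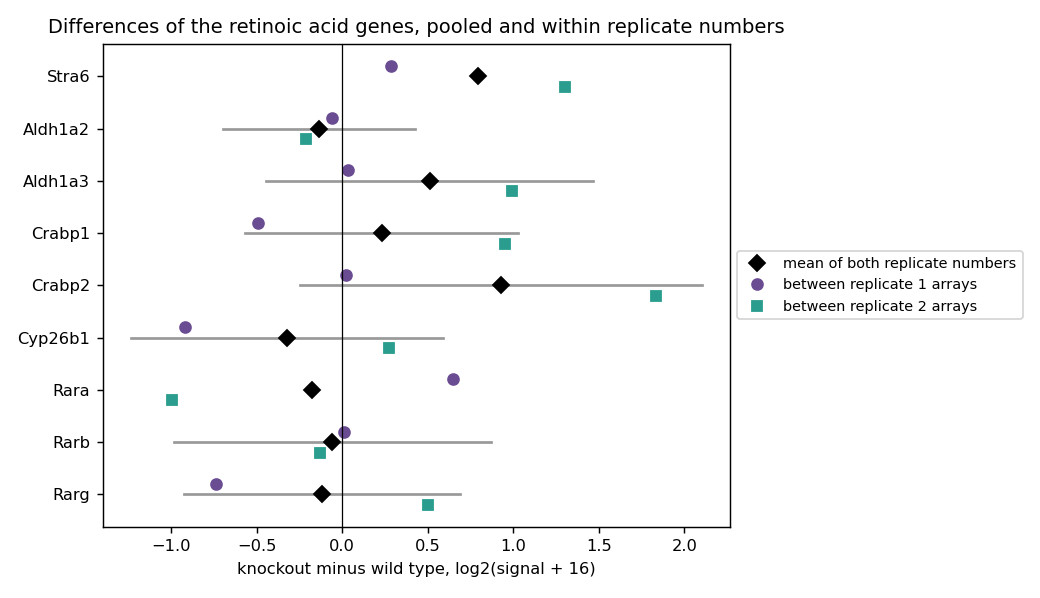
Difference between knockout-labelled and wild-type arrays on the log2(signal + 16) scale for each retinoic acid gene, as the mean (diamond) with its 95% interval from limma for the 7 genes tested (grey line), and between arrays of the same replicate number (circle for 1, square for 2). Every interval included 0, and the values within the 2 replicate numbers lay furthest apart for Crabp2 (0.02 and 1.83) and Rara (0.65 and -0.998).

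The retinoic acid receptors are nuclear receptors with partly overlapping roles, and Rarb is itself switched on by retinoic acid. Rarb (1454906_at) gave signals of 934 and 567 (wild type) against 943 and 517 (knockout-labelled). Arrays of the same number were alike, with replicate 2 below replicate 1 by 0.70 for wild type and 0.85 on the knockout-labelled arrays on the log2 scale. The log2 difference between genotypes was -0.06 (SE 0.39, 95% interval -0.99 to 0.87, adjusted p 0.985), and it was 0.01 and -0.13 within the replicate numbers. Quantile normalisation gave 0.09 and centring 0.17, so it has no settled sign. Rarb and Aldh1a2 were the 2 genes of the 9 in which both replicate 2 arrays lay below both replicate 1 arrays.

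The promoter of Rarb is shown because it carries the element through which the gene responds to retinoic acid, and that of the degrading enzyme gene Cyp26a1 because a similar repeat was found in it. Both are RefSeq windows of the assembly GRCm38.p6, from 250 bases before to 50 bases after a gene start, written along the gene's strand with the half-sites in capitals. The Rarb window is chr14:16575427-16575726 on the minus strand, and the Cyp26a1 window is chr19:37697558-37697857 on the plus strand.
Rarb: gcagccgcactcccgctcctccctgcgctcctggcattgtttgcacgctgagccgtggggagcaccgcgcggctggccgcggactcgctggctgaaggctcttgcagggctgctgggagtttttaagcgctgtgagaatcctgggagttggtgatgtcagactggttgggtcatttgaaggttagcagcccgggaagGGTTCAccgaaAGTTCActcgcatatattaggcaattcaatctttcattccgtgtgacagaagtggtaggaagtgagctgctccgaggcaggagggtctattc
Cyp26a1: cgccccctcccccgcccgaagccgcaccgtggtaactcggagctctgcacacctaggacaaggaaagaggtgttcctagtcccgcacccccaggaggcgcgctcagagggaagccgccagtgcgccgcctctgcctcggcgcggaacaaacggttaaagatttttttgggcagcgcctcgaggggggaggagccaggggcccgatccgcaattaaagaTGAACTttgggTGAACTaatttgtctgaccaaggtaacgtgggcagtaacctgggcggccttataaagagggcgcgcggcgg

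The search was for a direct repeat of half-sites on both strands, with a spacer of 1, 2 or 5 bases. A half-site was any of 4 words of 6 letters: AGGTCA, the standard receptor half-site, its variant AGTTCA with T at the third place, the variant GGGTCA that opens with G, or GGTTCA, which has both changes. In Rarb the repeat with 5 bases between was found on the gene's own strand, from base -53 to base -37, counted from the gene start. In Cyp26a1 a repeat with 5 bases between lay on the opposite strand, from base -32 to base -16, and the capitals there show the complement of the half-sites. Such a repeat with 5 bases between was in 32 of 32851 promoter windows, or 0.0974%, with 0.222% for a spacer of 1 base and 0.268% for 2 bases. Of the 9 genes, 7 had 14 windows in the table, and Rarb was the gene of these in which a repeat was found. Of 57 further retinoid genes with a window, 2 had one, Cyp26a1 and, with a spacer of 1 base, Bco1. In the other windows these letters were not present, which says nothing about binding elsewhere. A match is a description of the sequence and not of its use in these samples.

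Cyp26a1, a retinoic acid hydroxylase and a well-known target of the pathway, gave signals of 571 and 499 (wild type) against 484 and 920 (knockout-labelled). The high array was knockout-labelled replicate 2, on which Rarb was lowest, so the 2 genes whose promoters are shown did not go the same way across arrays. The log2 difference of Cyp26a1 was 0.32, or -0.23 within replicate number 1 and 0.86 within number 2, with an adjusted p of 0.912.

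Rarg (1419415_a_at), the receptor known for roles in cartilage and squamous epithelia, gave signals of 2368 and 1204 (wild type) against 1412 and 1713 (knockout-labelled). Here the wild-type arrays were the outer pair and both knockout arrays lay between them. Knockout-labelled minus wild type, the log2 difference was -0.12 (SE 0.34, 95% interval -0.92 to 0.69, adjusted p 0.966), and within replicate numbers 1 and 2 it was -0.74 and 0.50. A dimmer probe set, 1419416_a_at, gave signals of 245 and 264 (wild type) against 270 and 209 (knockout-labelled), with a log2 difference of -0.09 and signs of 0.13 and -0.32 within the numbers, opposite to those of the brighter one.

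Rara (1450180_a_at), the broadly expressed receptor, was represented by a dim probe set that gave signals of 71.5 and 128 (wild type) against 121 and 56.0 (knockout-labelled). The groups overlapped, and the 2 differences within replicate numbers were 0.65 and -0.998 on the log2 scale, a mean of -0.175. At this level, below the filter, no test was made.

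Degradation was represented by Cyp26b1, the retinoic acid hydroxylase of mesenchyme and developing cartilage. Its probe set, 1460011_at, gave signals of 665 and 581 (wild type) against 345 and 705 (knockout-labelled). The wild-type arrays lay between the knockout arrays, with knockout-labelled replicate 1 lowest. The difference on the log2 scale was -0.32 (SE 0.39, 95% interval -1.23 to 0.59, adjusted p 0.914), and it was -0.92 within replicate number 1 and 0.27 within number 2. Without knockout-labelled replicate 1 it was 0.18, and without replicate 2 it was -0.82, still short of the threshold. Knockout-labelled replicate 1 also had the lowest sum of the 4 arrays for 8 of 17 marker lists, cartilage (53549), fibroblasts (94073) and airway epithelium (67214) among them, and the highest for thymocytes and thymic epithelium. The 8 lists include the mesothelial list with Krt19, which without Krt19 was highest on this array, at 7326. They also include the placental and skin lists, at 326 and 2762, where wild-type replicate 1 was close, at 423 and 2891. The part of any of these cell types in the low Cyp26b1 signal was not tested.

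A wider list of 79 retinoid genes in 7 roles was read from the same fit. Of these 71 were paired with a probe set and 52 were tested, and 0 of the 52 passed. The rest of the list was not analysed here. Of the 71 genes 49 were lower on the knockout-labelled arrays, or 69.0%, against 51.8% of all genes, with a median log2 difference of -0.11 against -0.02. With arrays centred on their medians 21 of the 71 were lower, so this split depends on the scaling. Centring shifts every difference upward by the same amount, and the splits by role below depend on it too. At an unadjusted p under 0.05 there was 1 gene of the 52, Tgm2, where 4.58% of all genes tested met this level.

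Among carriers and storage genes, 3 of 11 were higher and 8 lower, and none of 6 tested passed. Rbp4, the plasma carrier of retinol, gave signals of 1070 and 2309 (wild type) against 1389 and 1202 (knockout-labelled), highest on wild-type replicate 2. Ttr, the plasma protein that travels with it, gave signals of 167 and 4684 (wild type) against 556 and 27074 (knockout-labelled). Both replicate 2 arrays were far above both replicate 1 arrays, and the log2 difference of 2.08 had an SE of 1.94. Its other probe sets, 1455913_x_at, 1459737_s_at and 1451580_a_at, gave 2.08, 1.62 and 1.30. Within replicate number 1, 1451580_a_at gave -0.37 where the brightest probe set gave 1.64. Rbp4 and Ttr are also genes of fetal liver and yolk sac. The other 4 such markers, Alb, Afp, Apoa1 and Apob, summed to 599 and 38687 for wild type and 1671 and 3759 on the knockout-labelled arrays. They were highest on wild-type replicate 2. Ttr was highest on knockout-labelled replicate 2, as the placental markers were. The part of any of these tissues in the Ttr signal was not tested. Rbp7, a cellular retinol-binding protein, gave signals of 569 and 982 (wild type) against 708 and 380 (knockout-labelled).

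Of 15 enzymes that interconvert retinol and retinal 12 were lower and 3 higher, none of 10 tested passed, and their median difference on the log2 scale was -0.21 (-0.12 and -0.15 within the replicate numbers). Rdh10, the main embryonic retinol dehydrogenase, gave signals of 3094 and 3107 (wild type) against 2866 and 2982 (knockout-labelled), a spread of 1.08-fold from lowest to highest array. Dhrs3, the reductase that returns retinal to retinol and is induced by retinoic acid, gave signals of 5412 and 5452 (wild type) against 4986 and 4259 (knockout-labelled). Its groups did not overlap, and the log2 difference was -0.24 (SE 0.17, adjusted p 0.875). Adh7, an epithelial alcohol dehydrogenase, read 917 and 724 against 525 and 667, a log2 difference of -0.45, with -0.52 on its second probe set. Adh1 had -0.29, with 0.04 and -0.61 within the replicate numbers.

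Further oxidation was represented by 4 genes of the list, of which 1 was higher and 3 lower. Aldh1a1, the enzyme most like Aldh1a2 and Aldh1a3 in function, gave signals of 7758 and 10030 (wild type) against 7596 and 5656 (knockout-labelled), without overlap. The log2 difference was -0.43 (SE 0.22, adjusted p 0.875), and it was -0.03 within replicate number 1 and -0.83 within number 2. Aldh1a7, a close relative of Aldh1a1, read 7315 and 9253 against 9264 and 9568, a log2 difference of 0.19. Aox3, an aldehyde oxidase, had -0.50. By the brightest probe sets, Aldh1a3 and Aldh1a7 were highest on knockout-labelled replicate 2, and Aldh1a1, Aldh1a2 and Aox3 were lowest there. Aldh1a7 was only 1.03-fold above the next array, and the Aldh1a3 probe set 1427395_a_at was highest on wild-type replicate 1. Of the degrading enzymes beside Cyp26b1, Cyp2s1 gave signals of 1268 and 1732 (wild type) against 1667 and 990 (knockout-labelled), and Cyp26a1 is given above.

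None of the RXR partners of the receptors passed. Rxra gave signals of 4923 and 4205 (wild type) against 3844 and 4328 (knockout-labelled), Rxrb had a log2 difference of 0.15 and Rxrg one of 0.42 with an SE of 0.34. Nr2f1 and Nr2f2 are orphan nuclear receptors that bind similar repeats. Nr2f1 gave signals of 3518 and 3350 (wild type) against 4099 and 4204 (knockout-labelled), a log2 difference of 0.27 with 0.22 and 0.33 within the numbers. Nr2f2 had -0.33 by its brightest probe set. By 1416160_at, 1431237_at, 1436475_at and 1444229_at it had -0.537, -1.265, -0.496 and -0.327. By 1416159_at it had 0.26, so this probe set disagreed in sign with the others. Neither Nr2f1 nor Nr2f2 passed, with an adjusted p of 0.875 for each. Coregulators, the proteins that RARs recruit to activate or repress, were lower in 10 of 12 genes by small amounts, with a median of -0.14, and -0.12 and -0.14 within the replicate numbers. Ep300 had -0.36, Ncoa2 -0.26 and Ncoa1 -0.22.

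Genes known to respond to retinoic acid did not go one way, with 8 of 20 higher, 12 lower and a median of -0.08. Tgm2, a transglutaminase long used as a retinoic acid target, gave signals of 7743 and 7644 (wild type) against 10545 and 10858 (knockout-labelled). Both knockout arrays were above both wild-type arrays, by 0.44 and 0.50 on the log2 scale within the replicate numbers, with an unadjusted limma p of 0.031 and an adjusted p of 0.875. Of its other bright probe sets, 1455900_x_at gave 0.37 without overlap. The groups overlapped on 1433428_x_at, which gave 0.51, with 6589 and 4242 (wild type) against 9264 and 6092 (knockout-labelled). They also overlapped on 1417500_a_at, which gave 0.79 and 0.07 within the numbers, and on the 2 dimmest, which gave 0.20 and 0.06 in all. Hoxa5, a regional identity gene of the airway mesenchyme, read 1941 and 1494 against 1639 and 623, and its second probe set read 913 and 857 against 677 and 436, log2 differences of -0.74 and -0.69. Without knockout-labelled replicate 1, 4 genes of the wider list passed in limma, Ttr, Rarres2, Hoxa5 and Ep300, with adjusted p of 3.1e-12, 5.63e-05, 0.0068 and 0.037, that is 4 of 52 where 4.21% of all genes tested passed, and without any other single array none did.

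**Figure D4:**
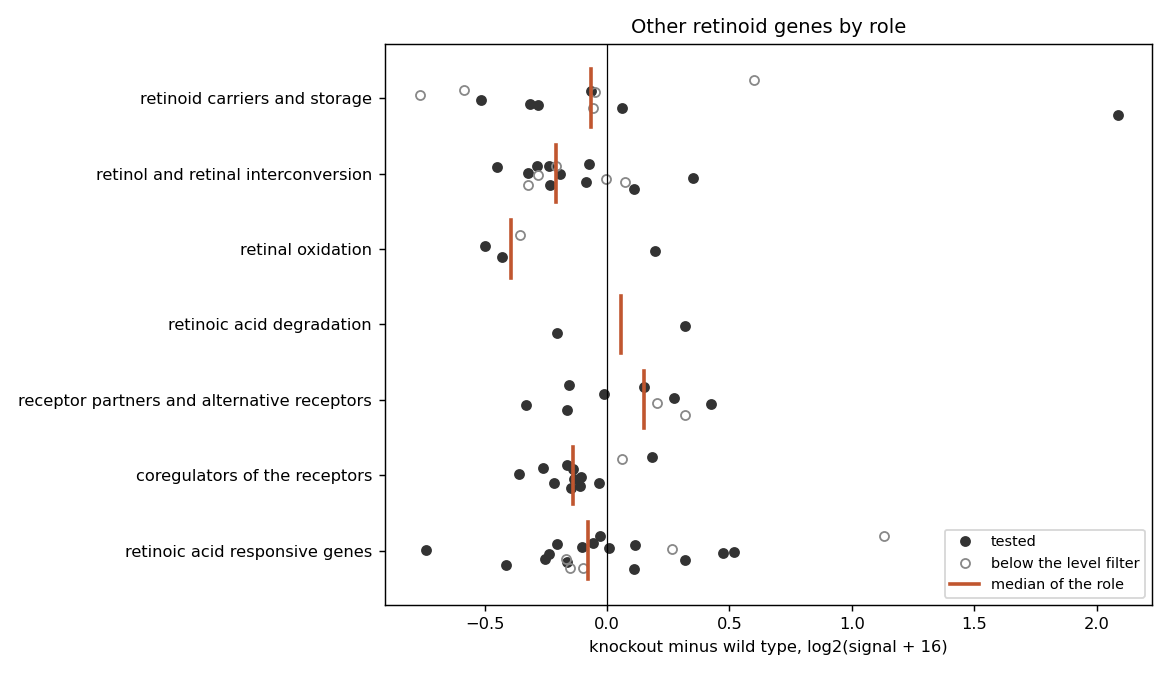
Difference between knockout-labelled and wild-type arrays on the log2(signal + 16) scale for 71 further retinoid genes by role, with filled points for genes tested, open points for genes below the level filter and a bar at the median of each role. Genes listed in more than 1 role appear in each. Of the 71 genes 63 lay within 0.5 of 0, and the largest difference was that of Ttr at 2.08.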

How the data were processed

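Per the labels, total RNA was amplified and biotin-labelled as cDNA from 50 ng. The authors deposited 1 linear intensity for each probe set on each array. MAS5 is the tool that the submitters' processing notes name, with settings not given in the sources used here. All arrays had a mean of 1500 once 2% of values was trimmed at either end, and their medians ran from 320 to 459.

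Of 45101 probe sets, 34945 had exactly 1 gene in the platform annotation, 932 had several, 9160 had none listed and 64 were controls. For 34741 the current symbol was looked up by gene identifier in RefSeq. The brightest probe set of each gene by mean log2(signal + 16) was kept. Genes were tested with limma 3.58.1 in R 4.3.3 (lmFit, and eBayes with an intensity trend), with genotype as the only term, Benjamini-Hochberg adjustment over 11694 genes and a threshold of 0.05. This scale understates differences of dim genes. The fit was tested on simulated data with independent noise of equal variance on all arrays of a gene. The simulation held no stray tissue and no effect of the replicate number, so it does not show how the fit performs with them.

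Members and lists were chosen with earlier results of these data known. Named genes are Cacna1h, all members, Aldh1a1, Rdh10, Dhrs3, Rbp4, Cyp26a1, Rxra, Rxrb and Rxrg, and in each role the 3 tested genes with the smallest unadjusted p; a further gene of this rule is not reported here. Rarres2 was named after its values were seen, since it passed without 1 array.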

Additional observations from a re-analysis of the deposited data

How the results depend on the processing

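Of 13 alternatives, the pseudocount (1 or 64), quantile normalisation, no level filter, one at the 75th percentile, centring, no intensity trend, the mean of all probe sets and the replicate block each left 0 genes past the threshold. Without single arrays the count ran from 0 to 492 over all genes (492 without knockout-labelled replicate 1, 104 without knockout-labelled replicate 2, 1 without wild-type replicate 2), from 0 to 2 among the 9 members (Crabp1 and Crabp2, without knockout-labelled replicate 1) and from 0 to 4 in the wider list. The median of the members ran from 0.038 to 0.365 without single arrays. With centring, differences reversed to 0.10 for Aldh1a2, 0.17 for Rarb, 0.11 for Rarg and 0.057 for the untested Rara, and with quantile normalisation to 0.087 for Rarb and 0.158 for Rara; centring shifts knockout-labelled replicate 2, whose median was the lowest. Without single arrays the ranges were -0.356 to 0.081 for Aldh1a2, -0.082 to 1.105 for Aldh1a3, -0.82 to 0.18 for Cyp26b1, -0.30 to 0.76 for Crabp1, -0.48 to 0.36 for Rarb, -0.60 to 0.36 for Rarg and -0.639 to 0.29 for Rara. Crabp2 and Stra6 were above 0 in every alternative run, from 0.06 to 1.80 and from 0.38 to 1.21. For both genes each knockout-labelled signal was above each wild-type signal. Leaving out a single array therefore could not turn the sign, and the constant sign adds no support.

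The numbers may or may not pair samples. Over 11694 tested genes, the difference between wild-type arrays 1 and 2 correlated with that between knockout arrays at r = 0.32, but nothing in the labels says what a number marks. With the replicate block 0 genes passed, and 1359 had an unadjusted p under 0.05 against 536 without it.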
